A study of Mus musculus with 42 samples.

Results

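The mouse yolk sac at E9.5 was compared with the visceral endoderm at E6.5 over 2479 of the 24083 genes in the table of developmental stages. A gene was included when its total was at least 10 FPKM in 1 of the 2 tissues and above 0 in both. FPKM are fragments per kilobase of transcript, scaled to the library, and the total is the sum of the maternal and the paternal value of a gene. Of these genes, 1548 reached 10 FPKM in both tissues, 559 in visceral endoderm alone and 372 in yolk sac alone. The genes nearest to the limit on its inner side were Herpud1, at 10.0051 FPKM in visceral endoderm and 7.92 in yolk sac, and Ccnk, at 10.0105 and 7.48. Just outside it were Prkcd, at 5.18 FPKM in visceral endoderm and 9.99861 in yolk sac, and Cyhr1, at 9.99241 and 3.26.

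The series holds 42 mouse embryo samples sequenced by Smart-seq2, a method that amplifies full-length polyadenylated RNA from very small amounts of tissue. The 4 samples used here were female and wild type, and their strain was given as C57BL/6N X PWK/PhJ, a cross whose sequence differences let reads be assigned to a parent. The 3 visceral endoderm samples share 1 pooled column for each allele in the deposited table, and the yolk sac was 1 sample, labelled by tissue with no layer named. No spread between samples could be computed, so no difference was tested, and a fixed rule of size was used. Stage, tissue layer and library cannot be told apart in this comparison.

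The visceral endoderm is an epithelium that wraps the early postimplantation embryo, and its extraembryonic part becomes the endoderm layer of the visceral yolk sac. By midgestation that layer lies on a mesoderm layer with blood islands, vessels and mesothelium. Its cells take up maternal protein by endocytosis through the cubilin, amnionless and megalin receptors, digest it in lysosomes, and secrete serum proteins and lipoproteins before the liver does. In the extraembryonic tissues of mice the paternal X chromosome is the silent one.

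Genes were called higher or lower in yolk sac at a ratio of at least 2 on total FPKM plus 1, and the ratio is given as its log2, yolk sac over visceral endoderm. Below, a pair of FPKM with no tissue named is the total in visceral endoderm and then in yolk sac, a pair within 1 tissue is the maternal and then the paternal allele, and the number in parentheses after them is the log2 ratio. By that rule 361 genes, or 14.6%, were higher in yolk sac and 761, or 30.7%, were lower, so that 1122 (45.3%) were called and 1357 lay in between. The median log2 ratio was -0.33, with quartiles of -1.24 and 0.51. After subtraction of that median, 525 genes (21.2%) were higher and 570 (23%) lower, so the share of higher genes among those called was 32.2% as deposited and 47.9% centred. The 372 genes below 10 FPKM in visceral endoderm entered through their yolk sac value, and the 559 below 10 in yolk sac through the other tissue, so the direction of many was set by the limit, and counts over a list describe it and are no support for a direction. Among the 1548 genes at 10 FPKM or more in both tissues, 136 (8.79%) were higher and 346 (22.4%) lower. A ratio of at least 4 was met by 121 genes upward (4.88%) and by 289 downward (11.7%). Among the 361 higher genes, 243 had all 4 allele values above 0, and 231 of these were above visceral endoderm on both alleles; for the lower genes 360 of 362 were below it on both. The alleles of a gene share the library and are not independent samples.

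The yolk sac column was much sparser than the other. It held 4506 genes above 0 against 14835 in visceral endoderm, and its values summed to 135523 FPKM against 334639, of which 127461 and 172102 were in the 2479 genes. A total of 1675 genes with at least 10 FPKM in visceral endoderm were listed at 0 in yolk sac, and 4 the other way. These zeros were not read as silence, since Eef1a1, a translation factor of every cell, was listed at 0 in yolk sac beside 1976 FPKM in visceral endoderm. In yolk sac 90.3% of the 2150 paternal shares strictly between 0 and 100% lay within 0.00001 of a ratio of whole numbers up to 20, against 18.1% of 12328 in visceral endoderm. One allele was at 0 for 939 of the compared genes in yolk sac (37.9%) and for 22 in visceral endoderm (0.887%). The ribosomal RNA precursor gene Rn45s made up 8.33% of the visceral endoderm sum and was listed at 0 in yolk sac.

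The ratio also differed with the length of a gene's exons. Its median was -0.87 in the group of genes with the shortest summed exons (148 to 1835 bases) of 4 groups of nearly equal size, then -0.45, -0.19 and 0.17 with rising length. Across 2473 genes with a length, Spearman's rho between ratio and length was 0.25, a description over genes of 1 pair of columns. With each ratio taken relative to the median of its length group, 508 genes were higher and 551 lower. The part that length has in single ratios was not tested.

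**Figure D1:**
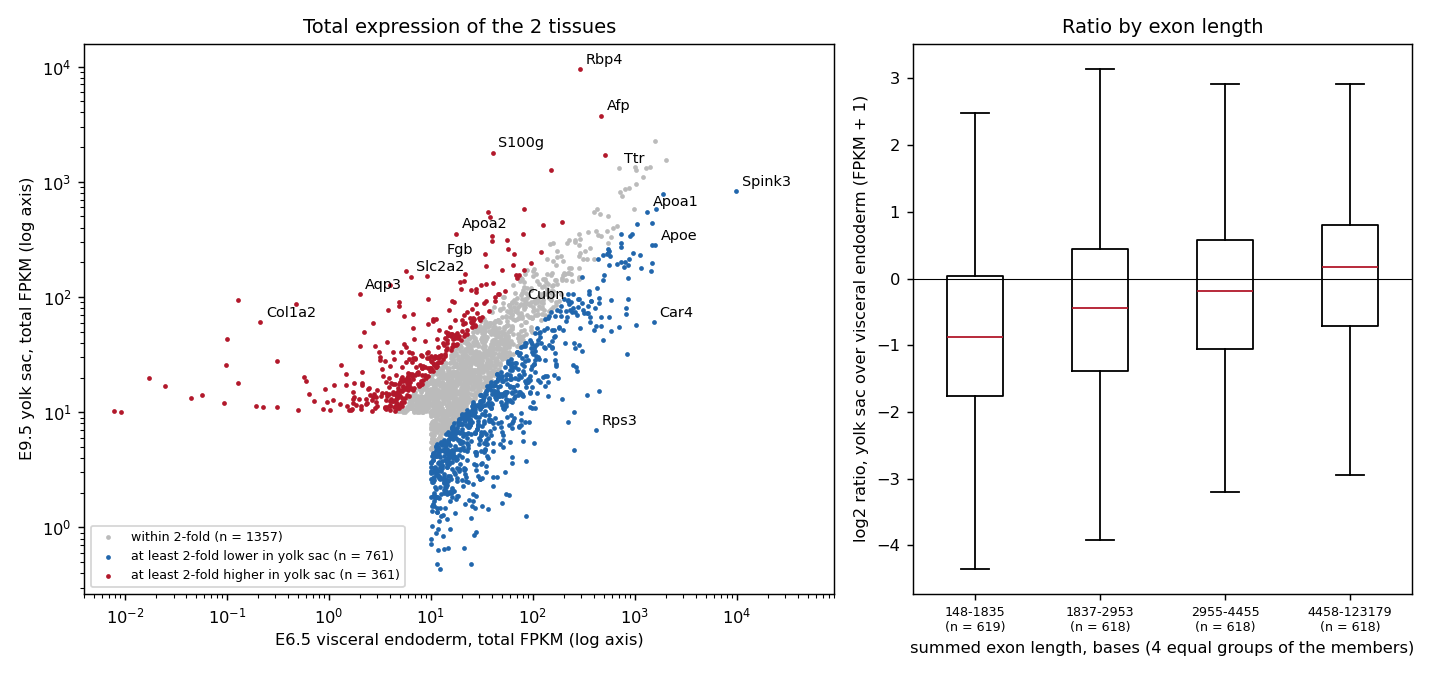
Left, total FPKM of the 2479 genes in visceral endoderm (x, log axis) and yolk sac (y, log axis), 1 point per gene, coloured by call; Rbp4 and Afp lie at the top and Spink3 and Car4 far to the right. Right, log2 ratio in the 4 groups of summed exon length (box, quartiles; line, median; outlying genes not drawn), with medians from -0.87 to 0.17.

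Genes of secreted serum and clotting proteins had the highest median ratio of the lists. Of the 11 such genes compared, out of a list of 41, 9 were higher, 1 was lower and 1 in between. Their median log2 ratio was 3.08 against -0.33 over all genes, of which 14.6% were higher and 30.7% lower. Of the 9, Fga, Fgg, Serpind1 and Tdo2 were below 10 FPKM in visceral endoderm and entered through yolk sac alone. Among the 7 at 10 FPKM or more in both tissues, 5 were higher and 1 lower, with a median of 2.76. The fibrinogen genes Fga, Fgb and Fgg, neighbours on chromosome 3 whose products form the clot protein, were all among the 9. Their upstream sequences are shown with that of Afp because these genes were all higher. They are the 150 bases before the RefSeq gene start, from GRCm38.p6, written 5′ to 3′ on the gene's strand. Capitals mark GTTAAT or its reverse complement ATTAAC, the core of the site bound by the liver and endoderm factor HNF1.
Afp, chr5:90490564-90490713, plus strand: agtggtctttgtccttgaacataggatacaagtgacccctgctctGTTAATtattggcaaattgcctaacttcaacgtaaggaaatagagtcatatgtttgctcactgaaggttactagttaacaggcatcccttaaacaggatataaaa
Fga, chr3:83026003-83026152, plus strand: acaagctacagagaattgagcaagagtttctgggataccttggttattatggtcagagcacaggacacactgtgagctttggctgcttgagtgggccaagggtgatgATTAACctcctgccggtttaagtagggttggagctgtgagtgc
Fgb, chr3:83049864-83050013, minus strand: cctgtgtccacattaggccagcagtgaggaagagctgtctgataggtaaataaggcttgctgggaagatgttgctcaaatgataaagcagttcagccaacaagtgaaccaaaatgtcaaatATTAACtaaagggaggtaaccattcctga
Fgg, chr3:83007574-83007723, plus strand: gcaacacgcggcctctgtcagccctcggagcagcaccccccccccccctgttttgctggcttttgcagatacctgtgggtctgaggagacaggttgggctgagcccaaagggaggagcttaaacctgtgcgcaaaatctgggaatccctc
The motif began 105 bases before the start in Afp, 43 in Fga and 29 in Fgb, and these letters are not in the window of Fgg. Over all 32851 promoters of the table, 3.71% held it in such a window, against 2.71% of 1989 promoters of compared genes. The share was 2.85% of the 281 promoters of genes higher in yolk sac and 2.90% of the 620 of lower genes, so the match is a description of these sequences and not a property of the higher genes.

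The 2 most abundant of these messages in yolk sac carried a vitamin and a fetal serum protein. Rbp4, which encodes the plasma carrier of retinol, had 138 maternal and 154 paternal FPKM in visceral endoderm and 1939 and 7601 in yolk sac, a log2 ratio of 5.03. Afp, the fetal counterpart of albumin, had 173 and 293 FPKM in visceral endoderm and 2247 and 1498 in yolk sac, a log2 ratio of 3.0. Both alleles of each gene were thus far above the visceral endoderm values. Igf2, a growth factor gene expressed from the paternal allele, had a total of 33.9 FPKM in visceral endoderm and 235 in yolk sac (2.76). Trf, which encodes the iron carrier transferrin, had 19.7 and 7.98 FPKM on its maternal and paternal alleles in visceral endoderm and 59.1 and 52.4 in yolk sac, for a log2 ratio of 1.97.

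The clotting genes began from lower levels. Fgb, the fibrinogen beta chain gene, had 17.2 maternal and 22.2 paternal FPKM in visceral endoderm and 215 and 125 in yolk sac, a log2 ratio of 3.08. Fgg, the gamma chain gene, had a total of 9.18 and 153 FPKM (3.92), and Fga, the alpha chain gene, 1.32 and 25.6 (3.52). All 3 chains were therefore higher on both alleles, with Fga the least abundant in both tissues. Serpind1, which encodes the thrombin inhibitor heparin cofactor II, had 0.0942 FPKM in visceral endoderm and 12 in yolk sac (3.57). Tdo2, the tryptophan-degrading enzyme gene, stood at 0.00923 and 10.1 FPKM (3.46).

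Ttr and Ctsz were the exceptions in the list. Ttr, the thyroid hormone and retinol-binding protein carrier, had 380.3 and 313 FPKM in visceral endoderm and 972 and 347 in yolk sac, a log2 ratio of 0.93 that passed 1 only on the maternal allele (1.35) or relative to the other genes (1.26 after centring). Ctsz, which encodes a lysosomal protease, was lower, at 245 and 79.7 FPKM (-1.61), but within a ratio of 2 relative to genes of similar length. A further 25 genes of the list were listed at 0 in yolk sac, among them 2 with at least 10 FPKM in visceral endoderm. Complement genes outside the list showed the same direction: Cfi, a complement protease gene, had 2.22 FPKM in visceral endoderm and 49.4 in yolk sac (3.97), and Mbl2, a lectin of that system picked after its values were seen, had 2.00 and 37.7 (3.69).

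**Figure D2:**
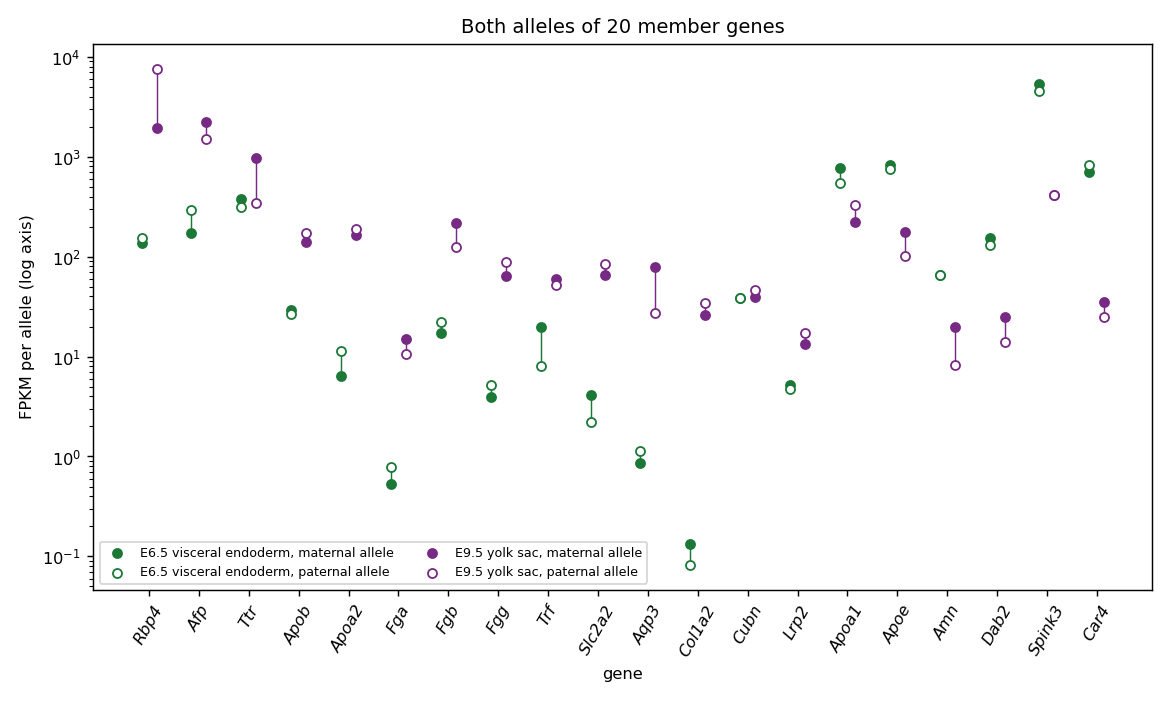
FPKM of 20 genes on a log axis, with the maternal (filled) and paternal (open) allele of visceral endoderm (green) and yolk sac (purple) joined by a line. From Rbp4 to Col1a2 both yolk sac alleles lie above both visceral endoderm alleles, except for Ttr; from Apoa1 to Car4 both lie below.

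The endoderm label was checked on 22 markers shared by visceral endoderm and yolk sac endoderm. In visceral endoderm 21 of 22 were above 0 and in yolk sac 19, with summed values of 17719.9 and 18017.5 FPKM, and the defining markers Afp, Ttr, Apoa1, Cubn and Amn were present in both. Within the list 6 genes were higher, 7 lower and 6 in between, with a median of 0.15. Among all genes compared 14.6% were higher and 30.7% lower. Spink3, which encodes a secreted trypsin inhibitor, had 5329 maternal and 4534 paternal FPKM in visceral endoderm, the highest total of the markers there, and 416 on each allele in yolk sac (-3.57). Car4, a membrane-bound carbonic anhydrase gene, had 707 and 835 FPKM in visceral endoderm and 35.5 and 24.9 in yolk sac (-4.65). The sums depend on the scale of the columns: the markers were 5.30% of all FPKM in visceral endoderm and 13.3% in yolk sac. Spink3 in the first tissue and Rbp4 in the second made up more of them than any other marker, and without these genes the sums were 7565 and 7646 FPKM. At 10 FPKM or more in both tissues, 5 of 18 were higher and 7 lower, with a median of -0.30.

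Lipoprotein genes also lay on both sides. Of 14 compared, 3 were higher (21.4%), 4 lower (28.6%) and 7 in between, beside 14.6% and 30.7% of all genes. The median of -0.80 came close to 0 (-0.03) relative to genes of similar length. Apob, the structural protein of large lipoproteins, had 29.0 maternal and 26.6 paternal FPKM in visceral endoderm and 139 and 173 in yolk sac (2.47). Apoa2, an apolipoprotein of high-density particles, had 6.40 and 11.3 FPKM in visceral endoderm and 166 and 187 in yolk sac (4.25). Apoa1, the main apolipoprotein of those particles, was on the other side, at 771 and 553 FPKM in visceral endoderm and 220.0 and 330.0 in yolk sac (-1.27). Apoa1 was still the more abundant of these partners in yolk sac, at 550.0 FPKM against 354.

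Apoe, a ligand of lipoprotein receptors, had 824 and 754 FPKM in visceral endoderm and 178 and 102 in yolk sac (-2.49). Apom, a carrier of sphingosine phosphate, had a total of 540.0 and 241 FPKM (-1.16), and Apoc1 had 99.8 and 31.9 (-1.62). Apoa1, Apom and Apoc1 stayed on the lower side but within a ratio of 2 relative to genes of similar length, at -0.40, -0.29 and -0.75. Apoc3, an inhibitor of lipoprotein lipase, had 11.2 and 24.8 FPKM (1.08). Mttp, which loads lipid onto apolipoprotein B, had 47.5 FPKM in visceral endoderm and 25.9 in yolk sac (-0.85). Apob was thus called higher, while its loading factor was within a ratio of 2 and was not called.

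The genes of protein uptake differed in their ratios. Cubn, the cubilin gene, was close in the 2 tissues, with 38.7 FPKM on each allele in visceral endoderm and 39.3 and 46.8 in yolk sac (0.15, or -0.02 relative to genes of similar length). Amn, the gene of its membrane partner amnionless, had 66.2 and 65.2 FPKM in visceral endoderm and 19.9 and 8.28 in yolk sac (-2.18). Lrp2, the megalin gene, had 5.22 and 4.78 FPKM in visceral endoderm and 13.4 and 17.4 in yolk sac (1.53). Dab2, an adaptor that links these receptors to clathrin, was lower, at a total of 283 and 38.7 FPKM (-2.84), as was Lrpap1, the chaperone of megalin, at 96.3 and 23.5 (-1.99). Fcgrt, the gene of the neonatal Fc receptor that carries maternal antibody, had 1.46 and 17.2 FPKM (2.89), all of the latter on the paternal allele. Lrp2, at a total of 9.996, and Fcgrt were below 10 FPKM in visceral endoderm and entered through yolk sac alone. Their direction was therefore set by the limit.

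Over the whole list of uptake and lysosomal genes, 4 of 23 were higher, 6 lower and 13 in between. Among all genes 14.6% were higher and 30.7% lower. The list median was 0.02. That median was 0.35 after centring and -0.02 relative to genes of similar length, so the list had no direction that held. At 10 FPKM or more in both tissues, 1 of 18 was higher and 5 were lower. Ctsd, the cathepsin D gene, had 27.8 and 3.16 FPKM (-2.79). Lgmn, the gene of the protease legumain, was at 281 and 284 FPKM (0.02).

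Transporter genes lay on both sides. Slc2a2, which encodes the low-affinity glucose transporter of liver and gut, had 4.12 maternal and 2.22 paternal FPKM in visceral endoderm and 65.1 and 85.3 in yolk sac (4.37). Slc23a1, a vitamin C transporter gene, had 6.67 and 54.2 FPKM (2.85). Aqp3, a water and glycerol channel gene, had 0.863 and 1.14 FPKM in visceral endoderm and 78.2 and 27.4 in yolk sac (5.15). Others were lower: Folr1, a folate receptor gene, had 168 and 26.2 FPKM (-2.63), and Slc16a1, a lactate transporter gene, 372 and 92.7 (-1.99). Aqp3 is not in the list of transporters. Of the 10 listed genes compared, 2 were higher and 4 lower, beside 14.6% and 30.7% of all genes, with a median of -0.50. Slc2a2 and Slc23a1, the 2 higher ones, entered through yolk sac alone, and among the 7 at 10 FPKM or more in both tissues 0 were higher and 3 lower, with a median of -0.87.

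The calcium-binding protein gene S100g, which is X-linked, had the third highest total among the genes called higher. It had 39.9 maternal and 0.573 paternal FPKM in visceral endoderm and 1782 maternal and no paternal FPKM in yolk sac (5.43).

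Of 9 iron and heme genes, 4 were higher and 1 lower, beside 14.6% and 30.7% of all genes, with a median of 0.49. Tfrc and Hebp1 entered through yolk sac alone, and among the 6 genes at 10 FPKM or more in both tissues 2 were higher and 1 lower, with a median of 0.22. Besides Trf, the transferrin receptor gene Tfrc had 4.60 and 21.2 FPKM (1.99), and Fech, the last enzyme of heme synthesis, 11.7 and 36.9 (1.58). Hebp1, a heme-binding protein gene, had 0.956 and 1.75 FPKM in visceral endoderm and 31.2 and 27.8 in yolk sac (4.02). Ftl1, the ferritin light chain gene, was lower, at 1025 and 56.9 FPKM (-4.15). Ferritin genes have near-identical copies in the mouse genome, so this value is uncertain. Fech and Tfrc are also expressed in primitive red cells, and fewer cells of a type and less RNA per cell cannot be told apart in bulk tissue.

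Of 23 transcription factor genes of the endoderm, 6 could be compared. In yolk sac 13 of the 23 were listed at 0, less than the 81.3% of the whole table. Of the 11 at 10 FPKM or more in visceral endoderm 6 were at 0, beside 44.3% of the 3782 genes at that level. Gata4, an early endoderm regulator, had 16.7 and 18.5 FPKM in visceral endoderm and 2.75 and 1.38 in yolk sac (-2.82). Hnf4a, a regulator of liver and yolk sac epithelium, had a total of 20.7 and 12.8 FPKM (-0.65). Creb3l3, a membrane-bound regulator of lipid genes, had 11.1 and 31.1 FPKM (1.41), and Maf, a leucine zipper factor gene, 5.17 and 1.54 in visceral endoderm and 64.6 and 6.46 in yolk sac (3.22). Tcf7l2, a partner of beta-catenin, had 14.1 and 5.19 FPKM (-1.28), and Klf6 had 20.1 and 29.6 (0.54). The gene of the dominant negative helix-loop-helix factor Id2 had 18.2 and 17.9 FPKM in visceral endoderm and 364 and 182 in yolk sac (3.88).

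Genes of the anterior and embryonic part of the visceral endoderm, which patterns the epiblast and later joins the gut, were present in the earlier tissue and nearly all at 0 in the later one. All 18 were above 0 in visceral endoderm, with a sum of 1334 FPKM, and 17 were listed at 0 in yolk sac. Hhex, a homeobox gene of the anterior domain, was the 1 that could be compared, with 24.6 and 24.0 FPKM in visceral endoderm and 5.60 and 1.87 in yolk sac (-2.55). Cer1, a secreted inhibitor of Nodal, had 147 FPKM in visceral endoderm, Lefty1 102 and Otx2 87.5, each listed at 0 in yolk sac. Of the 15 at 10 FPKM or more in visceral endoderm 14 were at 0 in yolk sac, beside the 44.3% of all genes at that level, and zeros give no fold.

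Markers of the other yolk sac layers were found in the yolk sac column in part. Col1a2, a fibrillar collagen gene of mesenchyme, had the highest ratio of the genes with 4 values above 0, with 0.133 and 0.0811 FPKM in visceral endoderm and 26.0 and 34.7 in yolk sac (5.67). Col3a1 and Lum, a collagen and a collagen-binding proteoglycan gene, were listed at 0 in visceral endoderm and at 23.4 and 32.7 FPKM in yolk sac. Fn1, the fibronectin gene, had 9.61 and 29.3 FPKM (1.52), while Tpm1, an actin-binding protein gene, was lower at 219 and 8.16 (-4.59). Over the 35 genes of the mesoderm and mesothelium list the sum was 497 FPKM in visceral endoderm and 332 in yolk sac, with 14 above 0 in yolk sac and the defining markers Col1a1 and Hand1 at 0 there and Postn at 7.85.

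Of the red cell genes, Hba-a2 and Hbb-bh1, an alpha and an embryonic beta globin gene, were listed at 0 in visceral endoderm and at 626 and 313 FPKM in yolk sac. Globin copies are near-identical, and Hba-a1, Hba-x and Hbb-y, like Alas2 and Gata1, were at 0 in yolk sac. Car2 and Prdx2, which red cells and epithelia both express, were lower, at 288 and 53.8 FPKM (-2.40) and at 347 and 72.9 (-2.23). The list of 36 summed to 708 FPKM in visceral endoderm and 1153 in yolk sac, with 10 genes above 0 in yolk sac. Endothelial genes summed to 30.8 and 17.3 FPKM, with 7 of 31 above 0 in yolk sac, Kdr and Pecam1 at 0 and Cdh5 at 0.575, and macrophage and megakaryocyte genes to 0.603 and 7.29, with 4 of 22 above 0, Csf1r and Ptprc among them. The part that these cells have in the other ratios was not tested.

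In visceral endoderm, epiblast genes summed to 506 FPKM against 27.2 in yolk sac, and 14 of the 18 were at 0 in yolk sac. Dnmt3b, a de novo DNA methyltransferase gene, had 49.1 and 31.8 FPKM in visceral endoderm and 1.88 and 3.75 in yolk sac (-3.63), and stood at 517 in the epiblast sample. Pou5f1, a pluripotency factor gene, was at 79.4 FPKM in epiblast and 0.334 in visceral endoderm. Other genes of this list went the other way. Mixl1 had 107 FPKM in visceral endoderm and 0 in epiblast, Fgf5 had 91.9 and 60.8, and Lin28a 60.2 and 20.6. The epiblast list thus held genes on both sides of that comparison. Genes of extraembryonic ectoderm and trophoblast summed to 783 and 162 FPKM, mainly from the keratin gene Krt18, Krt8 (in visceral endoderm) and Spc25, and the defining genes Cdx2 and Elf5 were at 0.981 and 0.260 in visceral endoderm and at 0 in yolk sac. Maternal decidua genes summed to 21.7 and 45.8 FPKM, the latter mainly from Lum, which the mesoderm list also holds.

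Basement membrane genes were lower or in between, with 0 of 8 higher, 4 lower and a median of -1.33 (-1.19 relative to genes of similar length). The shares over all genes were 14.6% higher and 30.7% lower. Nid2, a nidogen gene, had 42.7 and 8.90 FPKM (-2.14), and the laminin chain genes Lama5 and Lamc1 13.3 and 2.43 (-2.07) and 14.3 and 3.31 (-1.83). These entered through visceral endoderm alone, and among the 5 at 10 FPKM or more in both tissues 1 was lower. That gene was P4hb, at 179 and 54.5 FPKM (-1.70), which the list of the secretory route also holds. Col4a1, a type IV collagen gene, had 41.1 and 22.6 FPKM (-0.83), and Sparc, a matrix-binding glycoprotein gene, 103 and 92.4 (-0.16). Sparc was nearly level, and its sign turned after centring (0.18).

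**Figure D3:**
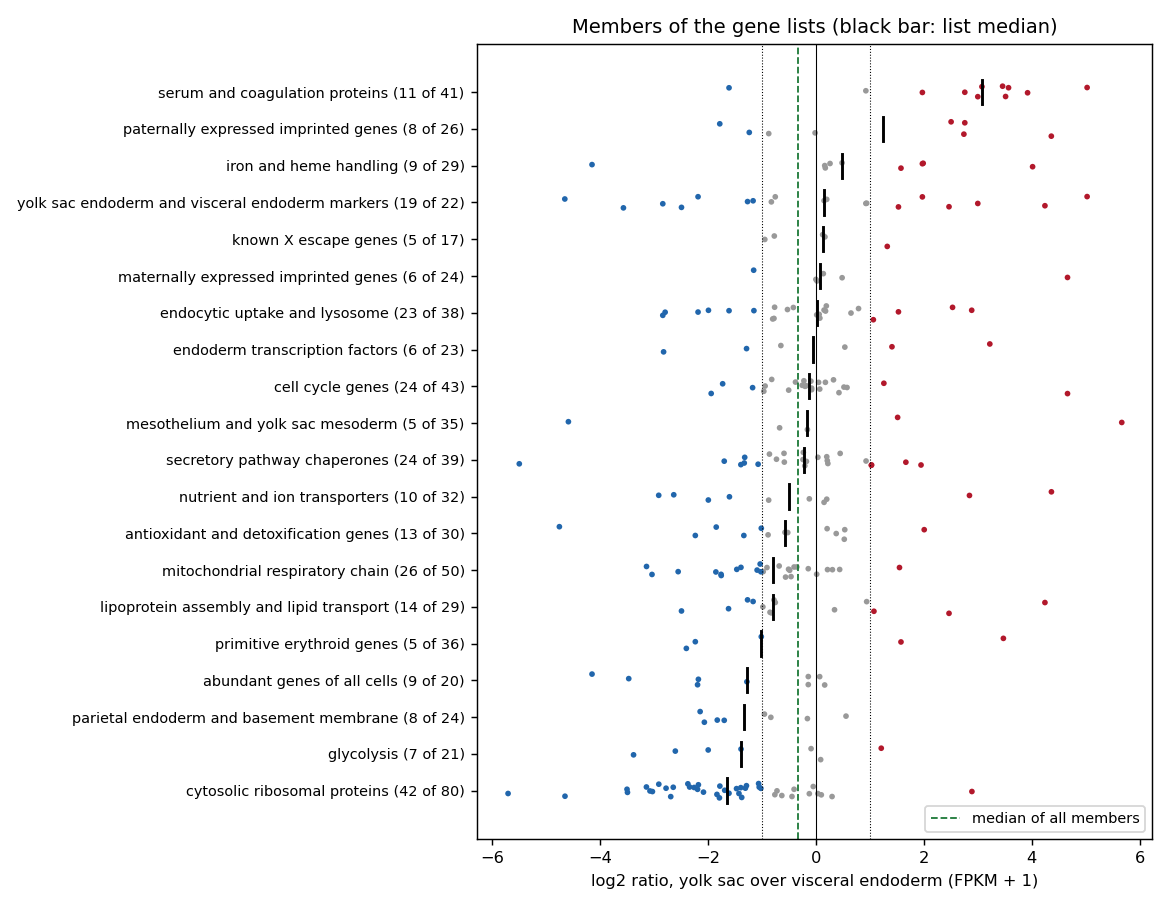
Log2 ratio of the compared genes of each list with at least 5 of them (x), 1 point per gene, with the list median as a black bar, the median of all genes as a dashed line and ratios of 2 dotted. Serum and clotting proteins lie at the top of these lists with a median of 3.08 and cytosolic ribosomal proteins at the bottom with -1.65.

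Among metabolic genes, glycolysis had 1 of 7 higher and 4 lower, beside 14.6% and 30.7% of all genes, with a median of -1.39. A further 14 of the 21 listed genes were at 0 in yolk sac. Among the 5 at 10 FPKM or more in both tissues 0 were higher and 3 lower. Ldha, the lactate dehydrogenase A gene, had 473 and 489.8 FPKM in visceral endoderm and 120.4 on each allele in yolk sac (-1.99), and Hk2, the hexokinase 2 gene, 12.7 and 1.25 in total (-2.60). Tpi1, an isomerase gene, had 266 and 24.7 FPKM (-3.38), and Pdk1, a kinase that holds pyruvate out of the mitochondria, 3.98 and 10.5 (1.21). Pdk1 entered through yolk sac alone and Hk2 through visceral endoderm alone. Respiratory chain genes had 1 of 26 higher and 11 lower, with a median of -0.79. They are short, with a median of 1067 exon bases, and their median was -0.07 relative to genes of similar length. Cox4i1, a cytochrome oxidase subunit gene, had 563 and 67.7 FPKM (-3.04).

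Ribosomal protein genes were the lowest of the large lists. Of 80 genes, 42 were compared, 31 were lower and 1 was higher, with a median of -1.65, or -0.91 relative to genes of similar length with 19 lower. Over all genes 30.7% were lower and 14.6% higher. Rps3, a small subunit protein gene, had 221 and 194 FPKM in visceral endoderm and 3.49 on each allele in yolk sac, the lowest ratio of the genes with 4 values above 0 (-5.70). Snord15a, a small nucleolar RNA encoded within Rps3 on the same strand, was on the other side, with 0.101 and 43.1 FPKM. Snord15b, also within Rps3, had 1.71 FPKM in visceral endoderm and was listed at 0 in yolk sac. The part that this overlap has in the value of Rps3 was not tested. Rpl39 and Rplp1, picked after their values were seen, were at 1289 and 1324 FPKM (0.04) and at 2029 and 1534 (-0.40). This list was added after values were seen, and ribosomal protein genes have many near-identical pseudogenes, so their values are uncertain.

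Genes of the secretory route, through which serum proteins leave the cell, had no common direction. Of 24, 4 were higher and 6 lower, beside 14.6% and 30.7% of all genes, with a median of -0.22 that became 0.11 after centring. Hspa5, the main chaperone of the endoplasmic reticulum, had 131 and 126 FPKM in visceral endoderm and 164 and 134 in yolk sac (0.21). Sec24d, a coat protein of export vesicles, had 6.98 and 29.8 FPKM (1.95), and Dnajc3, a co-chaperone gene, 22.7 and 74.4 (1.67). Dad1, a subunit of the glycosylation complex, was at 255 and 4.68 FPKM (-5.50). The high serum messages thus stood beside a near-level main chaperone.

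Cell cycle genes lay close to the median of all genes, with 19 of 24 in between, 2 higher and 3 lower, and a median of -0.14 (0.20 after centring). Over all genes 14.6% were higher and 30.7% lower. Mki67, a proliferation marker, had 15.3 and 17.4 FPKM (0.18), and Ccnb1, the cyclin B1 gene, 104 and 26.3 (-1.94). Kif20a, a motor of cell division, was higher at 11.7 and 29.4 FPKM (1.26). The other higher gene was the cell cycle inhibitor Cdkn1c, which entered through yolk sac alone. Of 13 antioxidant genes 5 were lower and 1 higher, with a median of -0.57 that was 0.21 relative to genes of similar length. Gsto1, a glutathione transferase gene, had 30.8 and 127 FPKM (2.01), and Gstp1, another, 441 and 15.4 (-4.75).

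Imprinted genes are transcribed mainly from 1 parental copy, and several with a one-sided value in visceral endoderm were one-sided the same way in yolk sac. Gab1, of the paternally expressed list, was not. Its paternal share was 72.5% in visceral endoderm and 33.3% in yolk sac. Cdkn1c, a growth-restraining gene expressed from the mother's copy, had 5.67 maternal FPKM in visceral endoderm and 168 in yolk sac, with no paternal FPKM in either (4.66). Igf2 had 0.256 maternal and 33.6 paternal FPKM in visceral endoderm and no maternal and 235 paternal in yolk sac. Peg10, a placental gene of retroviral origin, had only paternal values, 19.3 and 135 FPKM (2.74). Growth-promoting Igf2 was thus higher, with at least 10 FPKM in both tissues. Growth-restraining Cdkn1c was below 10 FPKM in visceral endoderm and entered through yolk sac alone, so its direction was set by the limit.

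Impact, a translation regulator gene, had 1.25 maternal and 18.4 paternal FPKM in visceral endoderm and 117 paternal in yolk sac (2.51). Plagl1, a zinc finger gene, had 0.0172 FPKM in total in visceral endoderm and 19.9, all paternal, in yolk sac (4.36). H19, a maternally expressed noncoding RNA next to Igf2, had 486 and 42.9 FPKM in visceral endoderm and 238 and 0 in yolk sac, a log2 ratio of -1.15 that was no longer past 1 after centring (-0.82) or relative to genes of similar length (-0.71). Meg3, a maternal noncoding RNA, was level, at 33.5 FPKM in each tissue. Of the paternally expressed list 4 of 8 were higher and 2 lower, with a median of 1.25 that was -0.01 at a minimum of 5 FPKM, 0.50 with none and 2.51 at 10 FPKM in both tissues. The lower ones were Sgce, at 22.8 and 5.94 FPKM (-1.78), and Gab1, at 23.6 and 9.45 (-1.23). Sgce and Gab1 entered through visceral endoderm alone, and Plagl1 through yolk sac alone. Among the 5 at 10 FPKM or more in both tissues 3 were higher and 0 lower. Of the maternally expressed list 1 of 6, Cdkn1c, was higher and 1, H19, lower (median 0.08). Among the 5 of that list at 10 FPKM or more in both tissues 0 were higher and 1 lower. The shares over all genes were 14.6% higher and 30.7% lower. Because 344 of 2373 autosomal genes with at least 1 FPKM had a paternal share of 100% in yolk sac and 433 a share of 0%, a one-sided value in that column does not by itself mark imprinting.

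The X chromosome held 86 of the compared genes. Their median log2 ratio was 0.04, against -0.34 for 2387 autosomal genes. Of the 86 X-linked genes 27 were higher and 17 lower, beside 334 and 743 of the 2387 autosomal ones. Over all genes 14.6% were higher and 30.7% lower. These counts were not repeated at 10 FPKM or more in both tissues. The part that entry through yolk sac alone has in them was not tested. Besides S100g, the higher ones included Maob, the gene of a monoamine oxidase, at 0.480 and 87.7 FPKM (5.91), Klhl13, of a ubiquitin ligase adaptor, at 3.95 and 127 (4.69), and Rps6ka6, a kinase gene, at 3.78 and 77.5 (4.04). In yolk sac all of the FPKM of S100g, Maob and Klhl13 were maternal, and 2.09 of the 77.5 of Rps6ka6 were paternal. The highest ratio, of 1700019B21Rik, an uncharacterised gene, rested on 0.130 and 94.5 FPKM (6.40). Maob, Klhl13, Rps6ka6 and 1700019B21Rik were below 10 FPKM in visceral endoderm and entered through yolk sac alone. Lower genes included Amot, a regulator of the Hippo pathway, at 338 and 14.2 FPKM (-4.48), and Hprt, of purine salvage, at 52.3 and 10.7 (-2.19).

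The paternal share of expression was near 0 on the X in both tissues. In visceral endoderm the median over 82 X-linked genes was 0.706% (quartiles 0.165 and 1.41), and in yolk sac over 85 genes it was 0%, with 70 of them at exactly 0. Autosomal medians were 48.9% (45.1 to 52.3) and 50% (25 to 71.4), so the middle of the distribution was the same and its width in yolk sac far greater. Among autosomal genes 18.2% were at 0% in yolk sac, against 82.4% of X-linked genes. Computed on summed FPKM, the X-linked share was 2.22% in visceral endoderm and 4.0% in yolk sac, or 1.77% and 3.85% without Xist.

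A few X-linked genes departed from this. Xist, the noncoding RNA that silences the chromosome it is made from, had 1.78 maternal and 25.5 paternal FPKM in visceral endoderm and 0 and 13.7 in yolk sac. In yolk sac 7 genes had a paternal share of at least 20%, against 3 in visceral endoderm. Hcfc1, a chromatin cofactor gene, and C330007P06Rik were all paternal in yolk sac, at 9.39 and 6.29 FPKM, after paternal values of 0.535 of 17.3 and 0.147 of 10.6 FPKM in visceral endoderm. Itm2a, a membrane protein gene, had 16.1 maternal and 11.5 paternal FPKM in yolk sac, a share of 41.7%, and Cul4b, a ubiquitin ligase scaffold gene, 33.3%. Ddx3x, an RNA helicase gene known to escape silencing, had 17.9 of 114 FPKM from the paternal copy in visceral endoderm and 23.8 of 129 in yolk sac. Since autosomal shares in yolk sac were spread from 0 to 100%, single values there are not read as escape.

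**Figure D4:**
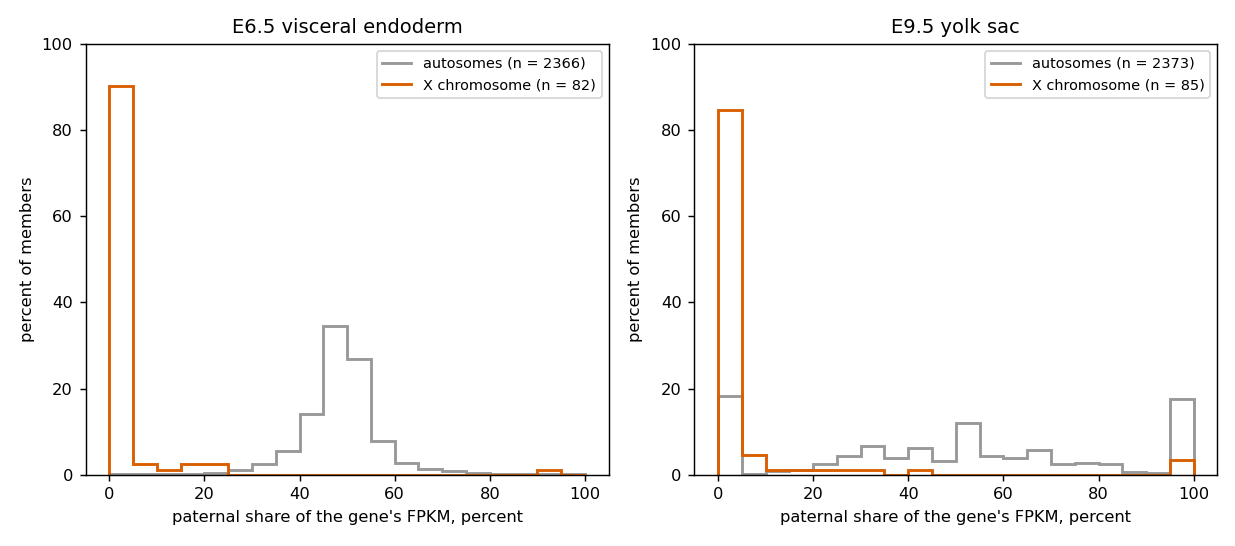
Distribution of the paternal share (x, percent of a gene's FPKM, bins of 5) over autosomal (grey) and X-linked (orange) genes with at least 1 FPKM, as percent of genes (y), in visceral endoderm (left) and yolk sac (right). Autosomal shares peak at the centre in visceral endoderm and spread to both ends in yolk sac, while X-linked shares lie near 0 in both.

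The genes were also set beside the other stages of the table. The total was highest in yolk sac among the 8 groups for 286 of the 361 higher genes (79.2%), which were selected as high there, and for 529 of all 2479 (21.3%). For 98 of the 761 lower genes (12.9%) it was highest in visceral endoderm, near the 9.24% of all genes. Rbp4, Afp, Fgb and Slc2a2 did not exceed 0.479 FPKM in the groups before implantation or in the epiblast. In extraembryonic ectoderm they had 27.6, 40.5, 3.24 and 0.130 FPKM. Aqp3 differed, with 231 FPKM in morulae and 177 in trophectoderm before the 2.00 of visceral endoderm and the 106 of yolk sac. Car4 stood at 268 FPKM in epiblast and 259 in extraembryonic ectoderm, both above its yolk sac level.

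**Figure D5:**
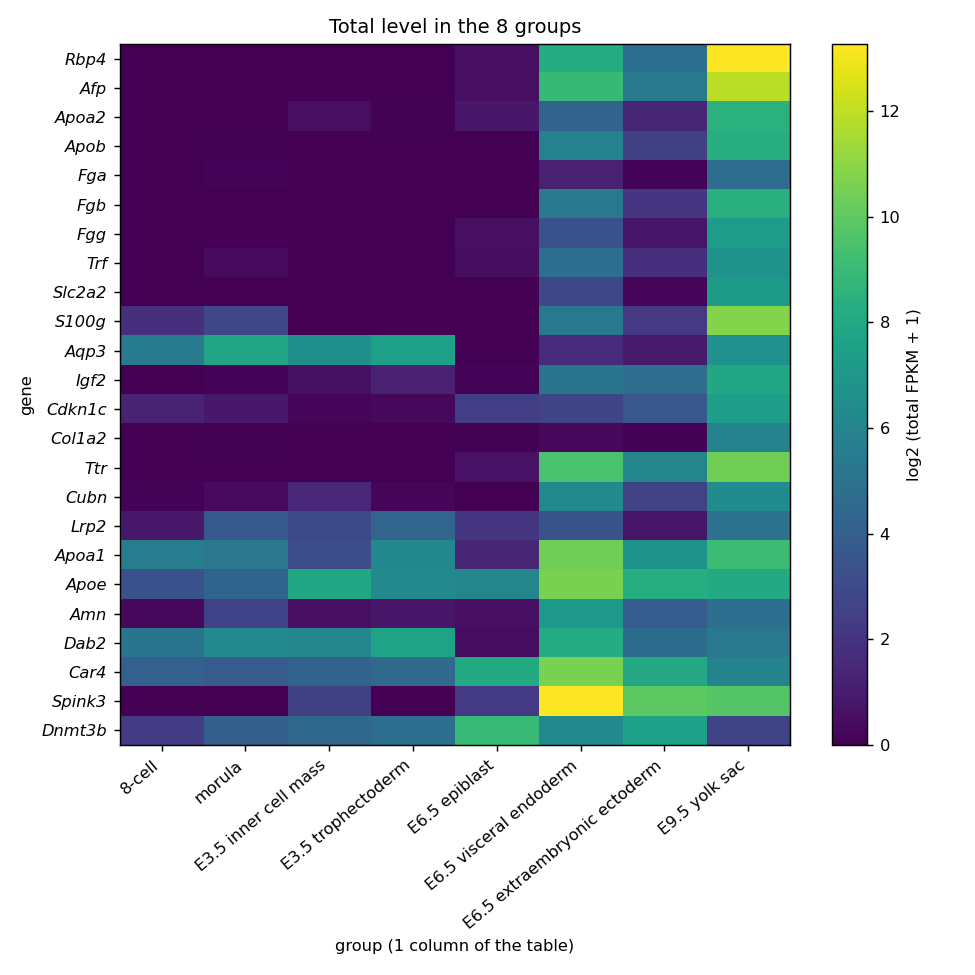
Heat map of log2 (total FPKM plus 1) of 24 genes (rows) in the 8 groups of the stage table (columns), with 1 column per group. The serum protein and transporter genes at the top are bright in yolk sac and, other than Aqp3, dark before implantation. Car4, Spink3 and Dnmt3b at the bottom are darker in yolk sac than in visceral endoderm.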

How the data were processed

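Allele-resolved RNA-seq of 3 pooled visceral endoderm samples and 1 yolk sac sample was used. Values are FPKM per allele, deposited by the authors; HISAT2 2.2.0, StringTie 2.1.1, Trim Galore 0.6.4 and the build mm9 stand in the submitters' processing notes. How reads were assigned to an allele is not given in the sources used here. No counts were given, so depth is unknown and no interval for it was computed.

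From these values totals, log2 ratios on FPKM plus 1, and paternal shares (paternal FPKM over the total, at 1 FPKM or more) were computed in Python 3.11.15 with pandas 2.3.3, numpy 2.4.6, scipy 1.17.1 and matplotlib 3.10.9. The ratio understates the change of low genes. There was no replication and no test; genes were called at a ratio of 2. The procedure was tested on simulated data. 5 summary lines were left out. Chromosomes and promoter sequences came from RefSeq (GRCm38.p6, 23950 of 24083 genes matched by symbol) and exon lengths from GENCODE M21, which differ from the mm9 of the files.

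Named were the 12 highest and 12 lowest ratios among genes with 4 values above 0, up to 6 genes per list farthest from 0, defining markers, and the 6 X-linked genes highest and lowest in ratio and highest in share. Other named genes, such as Lrp2, Lgmn, Mttp, Apoc3, Hspa5, Mki67, Mt1 and Mt2, and genes that could not be compared, were picked after values were seen. The genes compared and the lists were chosen with earlier results of these data known. Ahsp and Rhox5 were not matched. Alternatives were other pseudocounts, single alleles, other minimums, a ratio of 4 and 3 ways of centring or scaling.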

Additional observations from a re-analysis of the deposited data

How the results depend on the processing

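Without counts or separate samples, leaving out a replicate was not run, and the fold calls have no error. No paired analysis was possible because the deposited columns pool the samples of a group. The 361 higher genes became 94 at a minimum of 50 FPKM, 136 at 10 FPKM in both tissues, 683 with no minimum, 121 at a ratio of 4 and 570 with both columns scaled to the same sum. The 761 lower genes became 494 on the paternal allele, 362 with 4 values above 0, 292 at 50 FPKM, 346 at 10 FPKM in both tissues and 289 at a ratio of 4. The overall median of -0.33 was -0.15 on maternal and -0.11 on paternal values, -0.13 with 4 values above 0, -0.60 at 50 FPKM, -0.21 at 10 FPKM in both tissues and -0.10 with no minimum, and it changed sign to 0.083 at equal sums. At equal sums list medians moved to 0.45 for uptake, -0.36 for the respiratory chain, 0.29 for the cell cycle and -1.23 for ribosomal proteins. Centred, uptake moved to 0.35 and the cell cycle to 0.20; relative to genes of similar length the respiratory chain moved to -0.070, the secretory route to 0.23 and ribosomal proteins to -0.91. Nap1l4, the 1 gene of the maternally expressed imprinted list with paternal values above 0 in both tissues, gave -1.32 on them. Of 1022 recomputed values of named genes, 17 changed sign. In 5 of these, all on paternal values, either value was past a ratio of 2: C330007P06Rik (2.67), Hcfc1 (2.76), Mgst3 (0.11), Nap1l4 (-1.32) and Ywhaz (-1.15); in the other 12 both were within it. A further 53 values were no longer past the limit and 19 newly past it. The X-linked paternal share was 2.22% in visceral endoderm and 4.0% in yolk sac on summed FPKM, and 10.6% over yolk sac genes with both alleles above 0; the autosomal share in yolk sac was 52.1% on summed FPKM. The causes of these shifts were not tested. Scaling at equal sums and by length group was chosen after seeing the data.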

Other observations

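Among the genes with the highest ratios were enzymes of amino acid and drug metabolism that no list held. Aass, the first enzyme of lysine breakdown, had 1.68 maternal and 3.17 paternal FPKM in visceral endoderm and 43.0 and 46.9 in yolk sac, a log2 ratio of 3.96. Marc1, which encodes a mitochondrial amidoxime-reducing enzyme, had a total of 0.128 FPKM in visceral endoderm and 18.0 in yolk sac (4.08). At the other end, Tubb5, a beta-tubulin gene, had 483 and 42.8 FPKM (-3.47), and Cfl1, the gene of the actin-severing protein cofilin, 699 and 55.3 (-3.64). Actb, a cytoskeletal actin gene, was at 1890.1 and 779 FPKM (-1.28), and within a ratio of 2 relative to genes of similar length (-0.83). The tubulin and actin genes have near-identical copies, so these values are uncertain. Reep6 and Tnfaip8 had 62.0 and 4.10 FPKM (-3.63) and 27.3 and 1.49 (-3.51).

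Metallothionein genes, picked after their values were seen, were abundant in both tissues and within a ratio of 2. Mt1 had 1573 FPKM in visceral endoderm and 2281 in yolk sac (0.54), and Mt2 711 and 822 (0.21).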
